A study of Neurospora crassa with 10 samples.

Results

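The 45 genes described here encode parts of the mitochondrial respiratory chain and of the ATP synthase of *Neurospora crassa*, a filamentous fungus. They were chosen by name. A gene was taken when its name in the study's supplementary list of annotated genes held "ubiquinone oxidoreductase", "cytochrome c oxidase", "ubiquinol-cytochrome", or "ATP synthase", whatever the case of the letters. All 45 matched a locus (NCU number) among the 9728 genes of the deposited tables, and all were among the 7688 expressed genes, those with a mean FPKM above 1 at 1 or more time points. FPKM expresses the fragments of a gene relative to the length of its transcript and to all mapped reads of the sample, so levels can be set side by side between genes. Of the supplementary list, which is ordered by level in the dark, 1999 genes were read. Among those genes the lowest mean FPKM in the dark was 24.5, so genes with a low level in the dark were not reached by the rule.

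RNA-seq was carried out on mycelium of the wild-type strain FGSC2489, which carried no mutation or added gene in any of the groups. Liquid cultures grew for 24 hr in the dark at 25° and 150 rpm, and were then given white light of 1200 lux for 15, 60, 120, or 240 min or harvested as the dark control. There were 2 samples for each of the 5 time points, 10 in all. The samples numbered 1 and those numbered 2 were independent cultures and also differed in how poly(A) RNA was isolated (oligo-dT cellulose or magnetic beads). By the study's own account each library numbered 1 also had more reads than any numbered 2, and the second 240 min library had the fewest. Culture, isolation, and read depth thus cannot be told apart.

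Respiratory complexes pass electrons from NADH or succinate to oxygen and pump protons out of the mitochondrial matrix, and the ATP synthase uses the return of these protons to make ATP. Complex I (NADH:ubiquinone oxidoreductase) oxidizes NADH, complex III (ubiquinol-cytochrome c reductase) passes the electrons to cytochrome c, and complex IV (cytochrome c oxidase) gives them to oxygen. *N. crassa* has long been used to study complex I and the import of such proteins, most of which are encoded in the nucleus, made in the cytoplasm, and carried into mitochondria. The 45 genes comprised 28 of complex I, 3 of complex III, 3 of complex IV, 2 that assist the assembly of complex IV, and 9 of the ATP synthase. In the RefSeq annotation they lay on all 7 nuclear chromosomes, from 3 genes on chromosome IV to 13 on chromosome I, and only 1 pair, NCU05220 and NCU05221, were neighbors.

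The files give FPKM and no read numbers, so the depth behind a value is unknown from them, and its precision is shown by the spread of the 2 replicates. The tables list 721 to 915 genes per sample at 0, and none of the 45 was among them. FPKM summed over all genes was 944127 and 1009367 in the 60 min samples and between 559990 and 739137 in the other 8 samples. Light-induced conidiation genes (con-6, con-10, eas, and fl) summed to 88.0 and 54.8 FPKM in the dark, 717 and 980 at 15 min, 3927 and 4393 at 60 min, 2497 and 1657 at 120 min, and 192 and 95.8 at 240 min. Most of the sum at 60 min was con-6, with 3408 and 3456 FPKM. While con-6, con-10, and eas were highest at 60 min, fl was highest at 15 min, with 11.7 and 8.67 FPKM. It had 3.48 and 2.71 at 60 min. The 240 min replicates differed most from each other: 3451 of the expressed genes differed at least 2-fold between them, against 415 to 610 at the other time points.

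All 45 genes were well expressed, between 18.6 and 2438 FPKM over the 10 samples. In the dark their median was 216 FPKM in replicate 1 and 322 in replicate 2. By complex, the medians in the dark were 185 and 221 FPKM for complex I, 401 and 754 for complex III, 424 and 890.0 for complex IV, 48.9 and 60.5 for the assembly factors, and 381 and 775 for the ATP synthase. Complex I thus had the lowest median of the structural subunits in both dark replicates. Replicate 2 exceeded replicate 1 for 38 of the 45 genes in the dark. The highest member in the dark was *atp-2* (NCU05430), the catalytic beta subunit of the ATP synthase, and the lowest was the assembly protein NCU02149.

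As deposited, most respiratory genes were above their dark level at 60 min, below it at 120 min, and further below it at 240 min, and the order at 60 min turned round under 2 other scalings. The median log2 change over the 45 genes was 0.12 after 15 min of light, 0.41 after 60 min, -0.17 after 120 min, and -0.67 after 240 min, beside -0.05, -0.09, -0.07, and -0.14 for all expressed genes. For the 1999 genes of the supplementary list, which leaves out genes with a low level in the dark, the medians were -0.02, 0.15, -0.11, and -0.43. At 60 min 34 of the 45 genes were above the dark sample of the same replicate in both replicates, and 1 was below in both, when 38.2% of all expressed genes were above and 47.5% below. At 120 min 5 were above and 26 below in both replicates (39.3% and 47.2% of all expressed genes). At 240 min 1 was above and 34 were below (15.2% and 32% of all). At 15 min the counts were 24 and 6 (35.1% and 44.8% of all). Of the 1999 listed genes, 49.7% were above and 37.1% below in both replicates at 60 min. These shares were 40.3% and 49.8% at 120 min, 6% and 46.2% at 240 min, and 40.2% and 42% at 15 min. After quantile normalization, which gives all samples the same distribution of values, 8 genes were above and 27 below their dark level in each replicate at 60 min and the median change was -0.20, and after scaling to equal summed FPKM it was -0.19, when that scaling alone moved the median of all expressed genes to -0.56.

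**Figure D1:**
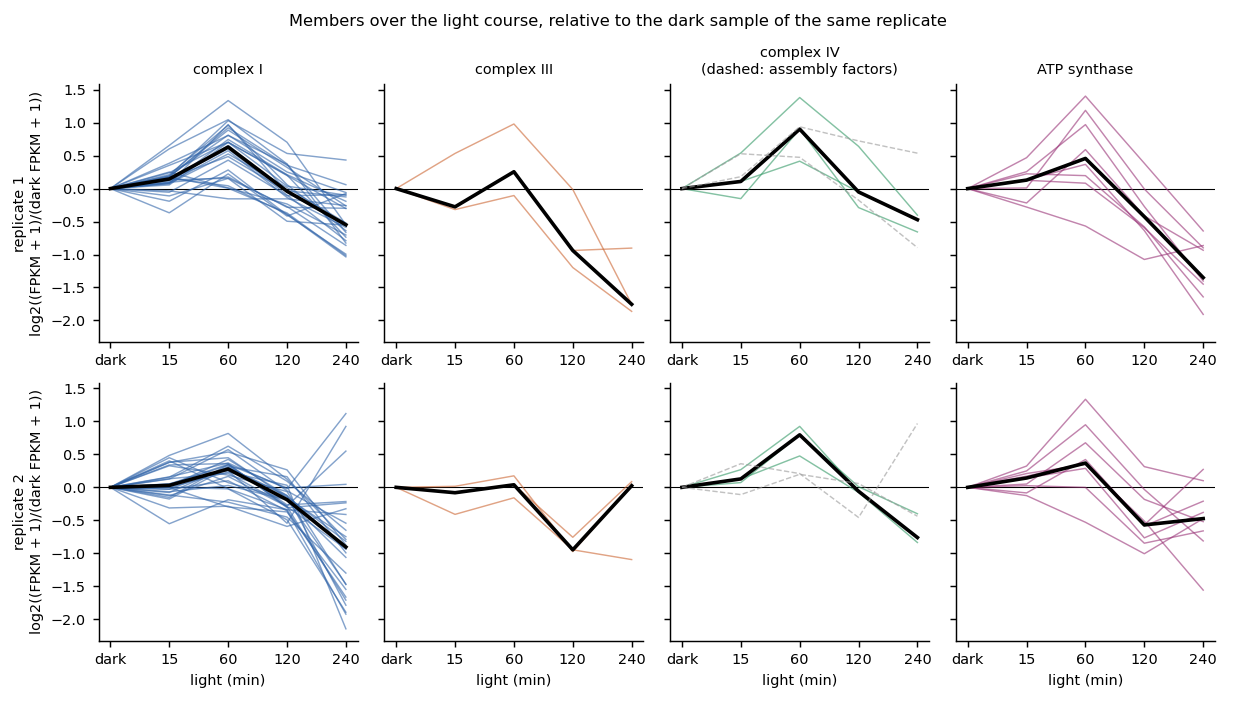
Change of each of the 45 genes over the light course in replicate 1 (top) and replicate 2 (bottom), by complex. The x axis is the time in light in min (steps not to scale), the y axis is the log2 ratio of FPKM + 1 to that of the dark sample of the same replicate, thin lines are genes, and the black line is the median of the structural subunits, all as deposited. The complex I median reached 0.63 and 0.28 at 60 min and the complex III median was -0.94 and -0.95 at 120 min.

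In the limma test without a replicate term, 2 of the 45 genes were higher and 0 lower at 60 min than in the dark at an adjusted p of 0.05, when 8.01% of the expressed genes were called higher and 6.65% lower. Adding the replicate number as a block removes the difference between replicates 1 and 2 that recurs across time points. With this block 28 were higher and 1 lower, beside 28.2% and 35.8% of the expressed genes. Of the 28 higher, 17 were of complex I and 6 of the ATP synthase. Among the 1999 genes of the supplementary list, 40.6% were called higher and 29.9% lower in the same fit. Only 3 of the 28, *nuo14.8* (NCU00418), NCU06741, and NCU00636, kept the call under quantile normalization, median scaling, and scaling to equal sums as well, and 1 gene, NCU00644, was lower under all 4. With the block and quantile normalization 3 were higher and 16 lower (26.5% and 33.3% of the expressed genes), with equal sums 4 and 13 (11% and 58.4%), and with median scaling 35 and 1 (36.2% and 26.4%). These scalings of the blocked fit were chosen after the data had been seen.

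Both genes that passed without the block were higher in each replicate. NCU05220, subunit F of the ATP synthase, which lies in its membrane part, had 517 and 775 FPKM in the dark, 716 and 922 at 15 min, 1368 and 1499 at 60 min, 675 and 758 at 120 min, and 331 and 441 at 240 min (replicates 1 and 2). Both 60 min samples were above both dark samples, and the log2 change was 1.18 ± 0.26 (SE, adjusted p = 0.036, and with the block SE 0.13 and adjusted p = 4.4e-04). NCU05220 did not keep the call of the blocked fit under every scaling. Its smaller change after quantile normalization is given below, beside that of its neighbor. The complex I gene *nuo14.8*, an accessory subunit and the highest of that complex in the dark, had 366 and 467 FPKM in the dark, 578 and 654 at 15 min, 926 and 825 at 60 min, 597 and 509 at 120 min, and 250.1 and 270.0 at 240 min. It was higher than in the dark at 15 min and 60 min in both replicates, with a log2 change at 60 min of 1.08 ± 0.20 (SE, adjusted p = 0.023, and with the block SE 0.16 and adjusted p = 0.0013). Leaving out any 1 of the 8 samples ended the call of *nuo14.8* without the block, and that of NCU05220 remained only without the second dark replicate.

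The 3 complex IV subunits were above the dark at 60 min in both replicates as deposited, and after quantile normalization *cox-6* (NCU06695) was not, with a log2 change of -0.35. NCU06741, subunit VIb, had 2006 and 2438 FPKM at 60 min, against 769.5 and 1284 in the dark, the highest values of any member at 60 min. Its log2 change was 1.15 ± 0.30 (SE, adjusted p = 0.062, and with the block SE 0.17 and adjusted p = 0.0014). The gene *cox-4* (NCU05689), the lowest structural subunit of complex IV in the dark, had 303 and 614 FPKM at 60 min and 161 and 353 in the dark. The ranges of the 2 groups overlapped, with replicate 2 above replicate 1 in each of them, and the log2 change was 0.85 ± 0.70 (SE, adjusted p = 0.52, and with the block SE 0.12 and adjusted p = 0.001). The assembly factor Cox17 (NCU02530), a copper chaperone, had 62.2 and 66.8 FPKM in the dark, 90.1 and 85.9 at 15 min, 86.8 and 77.3 at 60 min, 55.0 and 48.4 at 120 min, and 32.9 and 132 at 240 min. The other, NCU02149, had 35.7 and 54.2 FPKM in the dark, 40.6 and 50.2 at 15 min, 69.2 and 62.3 at 60 min, 59.6 and 56.5 at 120 min, and 52.2 and 39.8 at 240 min. Neither passed without the block at any time. With it, Cox17 was higher at 15 min (log2 change 0.44, adjusted p = 0.0065), also under the other 3 scalings, and at 60 min (0.34, adjusted p = 0.019, but -0.04 after quantile normalization), and lower at 120 min (-0.32, adjusted p = 0.026) and at 120 against 60 min (-0.66, adjusted p = 0.002). NCU02149 was higher with the block at 60 min (0.57, adjusted p = 0.03, but -0.02 with equal sums) and at 60 against 15 min (0.53, adjusted p = 0.048).

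The ATP synthase genes differed widely among themselves at 60 min. NCU00636, subunit D, had 523 and 860.3 FPKM at 60 min, against 229 and 340.1 in the dark, a log2 change of 1.26 ± 0.46 (SE, adjusted p = 0.14, and with the block SE 0.11 and adjusted p = 1.2e-04) and the largest among the 45. It is named for its value, as it did not pass without the block. As deposited, *atp-2* was near its dark level, with 1632 and 1537 FPKM at 60 min and 1542 and 1538 in the dark (log2 change 0.04, and -0.65 after quantile normalization). NCU00644, subunit G, the lowest ATP synthase gene in the dark, had 109 and 134 FPKM in the dark, 89.6 and 123 at 15 min, 73.2 and 92.5 at 60 min, 51.2 and 66.2 at 120 min, and 59.5 and 96.2 at 240 min. Of the 45 genes it was the only one that lay below the dark in each replicate at 60 min, with a change of -0.55 ± 0.25 (SE, adjusted p = 0.22, and with the block SE 0.08 and adjusted p = 0.0011). The 9 genes of this enzyme thus spanned -0.55 to 1.26 on the log2 scale in the same samples.

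Within complex I, 21 of 28 genes were above the dark in both replicates at 60 min and 0 below in both as deposited, but 4 above and 17 below after quantile normalization. The 6 members that are conserved core subunits of the arm that takes electrons from NADH toward the quinone had medians of 0.16 and 0.27 (log2, replicates 1 and 2), beside 0.63 and 0.28 for all 28, so that they stood lower in replicate 1 and alike in replicate 2. The flavoprotein subunit *nuo51* (NCU04044) was not taken by the name rule. For *nuo78* (NCU01765), the large iron-sulfur subunit, the levels were 114 and 72.1 FPKM at 60 min and 111 and 73.1 in the dark. For *nuo49* (NCU02534), which helps to form the quinone site, they were 117 and 82.7 at 60 min and 116 and 102 in the dark. The gene *nuo19.3* (NCU03953), whose product carries the iron-sulfur cluster next to the quinone site, had 222 and 413 FPKM at 60 min and 164 and 351 in the dark, with a wide gap between replicates at each time. The iron-sulfur subunit *nuo24* (NCU01169) had 117 and 179 FPKM at 60 min, against 116 and 131 in the dark, and another, *nuo21.3c* (NCU05009), had 135 and 191 at 60 min, against 111 and 155 in the dark. The last of these 6, *nuo30.4* (NCU04074), which carries no iron-sulfur cluster, had 237 and 219.9 FPKM at 60 min and 145 and 177 in the dark, the largest of these changes at 0.51 ± 0.18 (SE, adjusted p = 0.14, and with the block SE 0.11 and adjusted p = 0.0075), which became -0.06 after quantile normalization. The lowest complex I gene, *nuo11.6* (NCU04753), had 50.5 and 53.6 FPKM in the dark, 49.3 and 67.5 at 15 min, 45.3 and 61.1 at 60 min, 45.3 and 51.2 at 120 min, and 42.1 and 18.6 at 240 min, and its change at 60 min was 0.02 ± 0.23 (SE), and -0.26 after quantile normalization.

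Subunit mass, which the gene names give for 27 of the complex I genes, was only weakly related to the change at 60 min. Spearman's rho across the 27 genes was -0.31 in replicate 1 and -0.09 in replicate 2, as a description over genes that share libraries. The 6 genes for subunits of 24 kDa and above had a median log2 change of 0.23, the 10 for subunits between 15 and 24 kDa of 0.41, and the 11 for smaller subunits of 0.41. The neighbors NCU05220 and NCU05221 (*nuo21*, of complex I) did not change alike: the log2 changes at 60 min were 1.18 ± 0.26 (SE) and 0.12 ± 0.35 (SE), or 0.30 and -0.44 after quantile normalization. Whether their transcripts overlap was not examined.

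**Figure D2:**
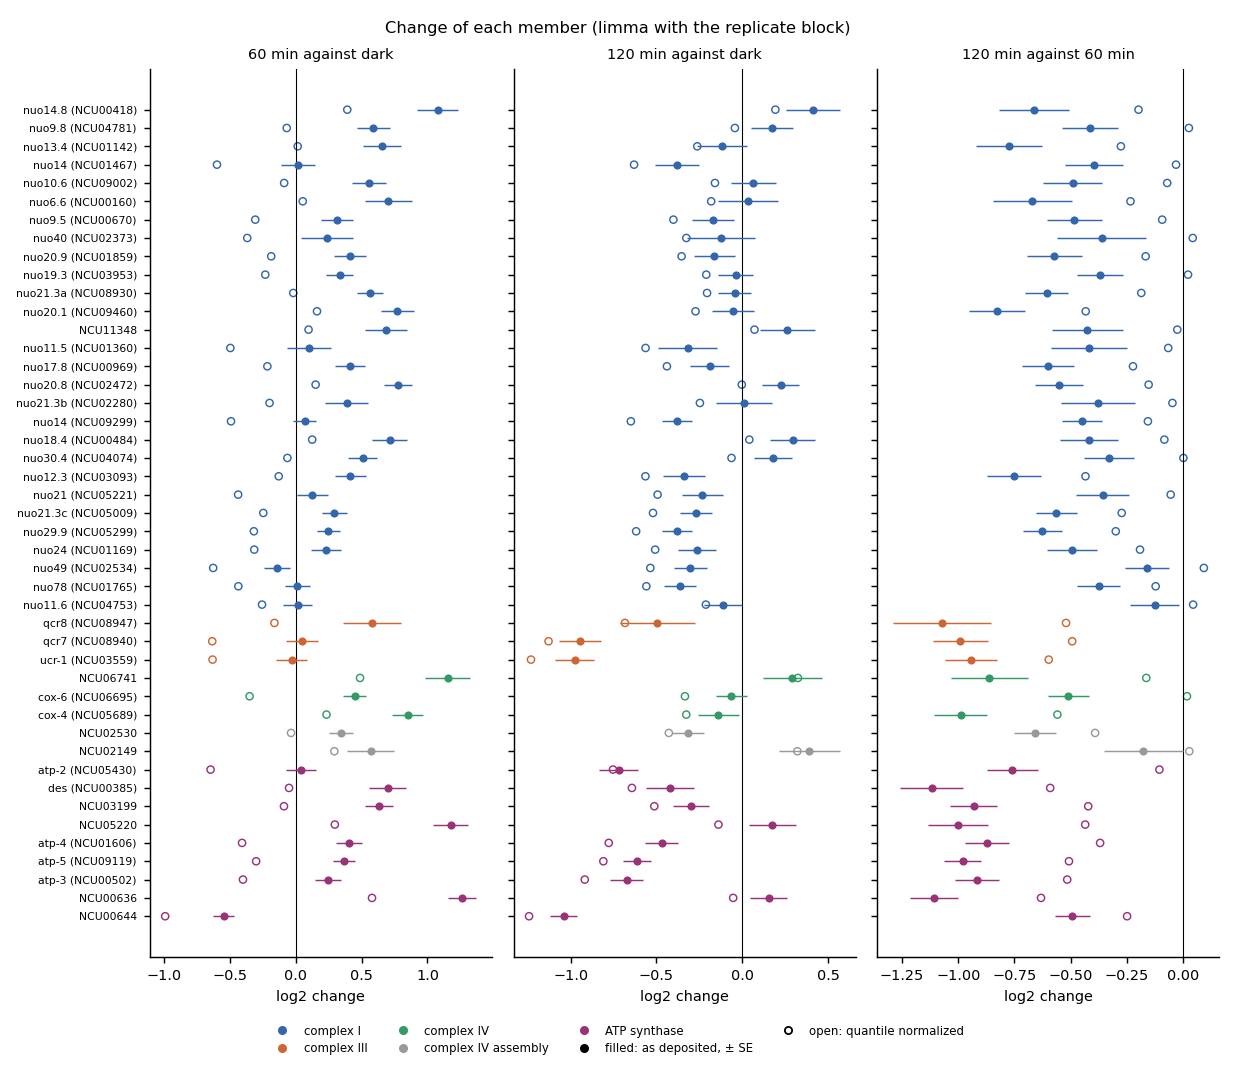
Log2 change of each gene at 60 min and at 120 min against the dark and at 120 min against 60 min, from limma with the replicate block. Filled points with bars are values as deposited ± SE, open points are after quantile normalization, and colors are complexes, ordered by level in the dark within each. All 45 filled points lie below 0 at 120 min against 60 min, from -1.12 to -0.13.

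As deposited, all 45 genes were lower at 120 min than at 60 min in both replicates, when 37.6% of the expressed genes and 62.2% of the 1999 listed genes were. The median log2 change was -0.57, beside 0.02 for all expressed genes. After quantile normalization 30 of the 45 were lower and 3 higher in both replicates (33.4% and 41.9% of the expressed genes), with a median of -0.19. With equal sums 24 were lower and 3 higher (12.9% and 73.8%). Without the block 1 gene passed, *atp-5*, when 0.65% of the expressed genes were called lower and 0.052% higher, and with it 37 were lower and 0 higher, beside 17.9% and 16.3%. Quantile normalization of the blocked fit left 14 lower and 0 higher (12.3% and 14.9%), equal sums 16 and 1 (5.31% and 45.6%), and median scaling 39 and 0 (22.5% and 12.2%). In the blocked fit 13 genes, 28.9% of the 45, were lower under all 4 scalings, against 4.44% of the expressed genes. These were 7 of 9 genes of the ATP synthase, all 3 of complex III, 1 of 3 of complex IV, and 2 of 28 of complex I. The fall was not particular to the 45. Of the lists described below, 5 of 17 further respiratory genes and 5 of 11 tricarboxylic acid cycle genes were lower in this way. So were 9 of 57 mitochondrial and 16 of 74 cytoplasmic ribosomal protein genes.

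The gene *atp-5* (NCU09119), annotated as the gamma subunit of the ATP synthase, had 381 and 409.6 FPKM in the dark, 418 and 461 at 15 min, 492 and 529 at 60 min, 245 and 273 at 120 min, and 101 and 354 at 240 min. The 120 min samples were below the 60 min samples without overlap, and the log2 change between them was -0.98 ± 0.16 (SE, adjusted p = 0.045, and with the block SE 0.08 and adjusted p = 2.9e-04). The call without the block was lost whichever of the 8 samples was left out. All 9 ATP synthase genes were lower at 120 min than at 60 min with the block, with changes from -1.12 to -0.49.

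At 120 min the complexes stood at different levels relative to the dark. The medians in replicates 1 and 2 were -0.94 and -0.95 for complex III and -0.43 and -0.57 for the ATP synthase (log2), but -0.04 and -0.19 for complex I and -0.05 and -0.06 for complex IV. After quantile normalization the medians of the fitted changes were -1.13 for complex III, -0.75 for the ATP synthase, -0.30 for complex I, and -0.33 for complex IV, and with median scaling they were -0.81, -0.33, 0.01, and 0.07 in the same order. Without the block 1 gene was lower and 0 higher (7.71% and 5.92% of the expressed genes), and with it 17 were lower and 0 higher (32.5% and 26.5%). The blocked counts were 25 and 0 after quantile normalization (29.6% and 27.9%) and 24 and 0 with equal sums (36.2% and 19.1%), but 8 lower and 4 higher with median scaling (26.5% and 31.6%). Median scaling put 13 of the 45 above and 18 below the dark in both replicates, with a median change of -0.04. The 17 comprised 7 of the 9 ATP synthase genes, 7 of the 28 of complex I, 2 of the 3 of complex III, and 1 assembly factor. Under all 4 scalings 8 genes, 17.8% of the 45, were lower than in the dark, beside 25.2% of the expressed genes. They were *atp-2*, *atp-3*, *atp-4*, *atp-5*, and NCU00644 of the ATP synthase, *ucr-1* and *qcr7* of complex III, and *nuo29.9* of complex I. The difference between complexes was not tested.

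NCU00644 was the gene that passed without the block, with 51.2 and 66.2 FPKM at 120 min, against 109 and 134 in the dark, and a log2 change of -1.04 ± 0.25 (SE, adjusted p = 0.047, and with the block SE 0.08 and adjusted p = 7.3e-05). This call, too, was lost without any 1 of the 8 samples. It was already lower at 60 min in both replicates, as given above. For *atp-2* the levels were 1542 and 1538 FPKM in the dark, 1684 and 1565 at 15 min, 1632 and 1537 at 60 min, 1023 and 854 at 120 min, and 564 and 973 at 240 min. Its change at 120 min was -0.72 ± 0.19 (SE, adjusted p = 0.058, and with the block SE 0.11 and adjusted p = 0.0018), and both 120 min samples were below both dark samples. In complex III, *ucr-1* (NCU03559), annotated as core protein 2, had 232 and 356 FPKM in the dark, 186 and 336 at 15 min, 216 and 366 at 60 min, 101 and 210.1 at 120 min, and 63.1 and 378 at 240 min. Its log2 change at 120 min was -0.98 ± 0.49 (SE, adjusted p = 0.27, and with the block SE 0.12 and adjusted p = 5.0e-04). The gene *qcr8* (NCU08947), a small subunit and the highest of complex III in the dark, had 537 and 1493 FPKM in the dark, 778 and 1509.7 at 15 min, 1061 and 1686 at 60 min, 532 and 759 at 120 min, and 159 and 1519 at 240 min, so that its 120 min value was near the dark in replicate 1 and below it in replicate 2. The gene *qcr7* (NCU08940), another small subunit, had 209 and 390.4 FPKM at 120 min, against 401 and 754 in the dark, and the change at 120 min was -0.94 ± 0.46 (SE, adjusted p = 0.26, and with the block SE 0.12 and adjusted p = 7.9e-04). In each of these 3 genes replicate 2 was higher than replicate 1 at every time.

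At 15 min no member passed without the block (0 higher and 0 lower), when 2.68% of the expressed genes were called higher and 1.74% lower. At an unadjusted p below 0.05 there were 2 higher and 0 lower, when 7.23% of the expressed genes were higher and 7.69% lower. With the block 3 were higher and 1 lower (18.6% and 22.6% of the expressed genes). Between 15 and 60 min 0 passed without the block (2.45% of the expressed genes were higher and 0.793% lower), and at an unadjusted p below 0.05 there were 7 higher and 0 lower (11.8% and 10.2%). With the block 23 were higher and 1 lower (22.4% and 27.8%). Both median changes depended on the scaling, and after quantile normalization they were -0.11 at 15 min against the dark and -0.04 at 60 min against 15 min. In the blocked fit 2 were then higher and 7 lower at 15 min (17.3% and 21.5% of the expressed genes), and 2 and 9 at 60 against 15 min (19.6% and 23.6%), with equal sums 3 and 2 (12.6% and 24.3%) and 3 and 10 (8.08% and 52.1%), and with median scaling 7 and 1 (20.9% and 18.8%) and 30 and 0 (29.5% and 20%). As deposited, 36 of the 45 genes had their highest value at 60 min in replicate 1 and 29 in replicate 2. For 27 it was so in both, when 12.9% of the expressed genes did so. The time of the highest value was not counted under the other scalings. With equal sums 9 of the 45 were higher and 28 lower at 60 than at 15 min in both replicates. Under that scaling most expressed genes were lower too. With median scaling most of the 45 were higher.

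As deposited, 42 of the 45 genes were below the dark at 240 min in replicate 1 and 36 in replicate 2. The size of the change in each complex differed between the replicates. No gene passed the limma test, neither among the 45 nor among all 7688 (0% higher and 0% lower), with or without the block. At an unadjusted p below 0.05 there were 38 higher and 61 lower among all expressed genes and 0 of the 45, and with the block 117 and 131, with 1 of the 45 lower. In replicate 1 the complex III and ATP synthase genes were the lowest, with medians of -1.75 and -1.35 (log2, relative to its own dark), and complex I was at -0.55. In replicate 2 complex I was the lowest at -0.90, and complex III and the ATP synthase were at 0.02 and -0.47. The gap in complex I depended on the scaling. Its medians in replicates 1 and 2 were -0.50 and -0.42 after quantile normalization and -0.56 and -0.59 with median scaling. Those of the ATP synthase were -1.12 and -0.05, and -1.36 and -0.16, in the same order. As deposited, the ratio to the dark was higher in replicate 1 for 18 of 28 complex I genes, and higher in replicate 2 for 7 of 9 ATP synthase genes.

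**Figure D3:**
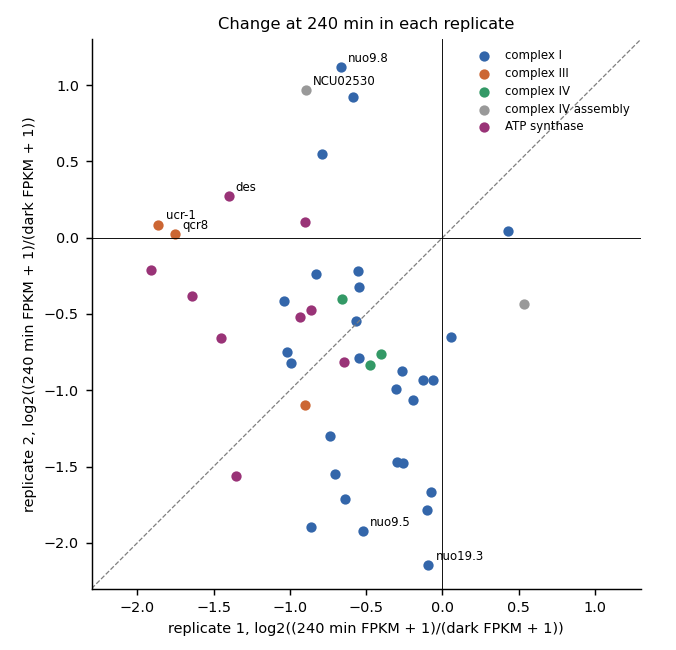
Change at 240 min in replicate 1 (x axis) and replicate 2 (y axis), each as the log2 ratio of FPKM + 1 to that of its own dark sample. Points are the 45 genes colored by complex, with values as deposited, and the dashed line marks equal change. Of the 9 ATP synthase genes 7 lie above the line and of the 28 complex I genes 18 lie below it.

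The 3 genes with the largest gap between the replicates at 240 min were *qcr8*, *des*, and *ucr-1*. For *des* (NCU00385), annotated as the delta subunit of the ATP synthase, the values were 508 and 1192 FPKM in the dark, 607 and 1124 at 15 min, 996 and 1598 at 60 min, 421 and 803 at 120 min, and 192 and 1440.2 at 240 min. At 240 min *qcr8* was 9.58 times and *des* 7.52 times higher in replicate 2 than in replicate 1, when in the dark they were 2.78 times and 2.35 times higher. The opposite was seen in *nuo19.3*, which had 154 and 78.6 FPKM at 240 min, against 164 and 351 in the dark, so that only replicate 2 was far below its dark. When the first 240 min replicate was left out, 7 members were lower (10% of the expressed genes), all of complex I: *nuo9.5*, *nuo49*, *nuo19.3*, *nuo11.6*, *nuo21*, *nuo21.3a*, and the *nuo14* gene NCU09299. When the second was left out, 7 were again lower (2.34%), and these were *des*, *atp-3*, *atp-4*, *atp-5*, NCU03199, *ucr-1*, and *qcr8*. In both of these fits the remaining 240 min sample is assumed to vary as the dark samples do. It was also set against the dark samples of both replicates, without the block. A gap between replicates that was already there in the dark thus enters these lists. For *atp-4* the log2 change against its own dark was -1.35 in replicate 1 and -1.56 in replicate 2. In the dark NCU03199 was 2.84 times higher in replicate 2. The lists therefore do not show in which replicate a gene fell more.

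Other genes also set the 240 min replicates apart. Summed over 12 heat shock genes the level was 4991 and 1279 FPKM at 240 min, against 3014 and 1903 in the dark. Most of the replicate 1 sum at 240 min came from heat shock protein 30 (NCU07232) and the hsp20 family gene NCU09420. NCU07232 had 2199 and 30.9 FPKM at 240 min and 360 and 226 in the dark. NCU09420 had 1316 and 8.54 at 240 min and 67.9 and 54.8 in the dark. Of the 12, 4 were above and 8 below the dark in replicate 1, and 5 above and 7 below in replicate 2. Only 1 was above in both. The cytoplasmic ribosomal protein genes held 14.0% of summed FPKM in replicate 1 and 37.0% in replicate 2 at 240 min. The part of these differences in the values of the respiratory genes was not tested.

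As a share of all FPKM, the 45 genes together held 2.37% ± 0.29 before light, 2.43% ± 0.33 after 15 min, 2.29% ± 0.23 after 60 min, 1.88% ± 0.26 after 120 min, and 1.81% ± 0.71 after 240 min (SD, n = 2 each). The share at 60 min was therefore within the replicate spread of that in the dark, although the summed FPKM of the 45 genes was 20076 and 24767 at 60 min, against 12328 and 18750 in the dark. At 120 min the share was 1.69% and 2.06%, against 2.16% and 2.57% in the dark, lower in both replicates, and the 2 groups did not overlap. In replicate 2 at 240 min it was 2.32%, and in replicate 1 it was 1.31%, the lowest of the 10 samples.

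**Figure D4:**
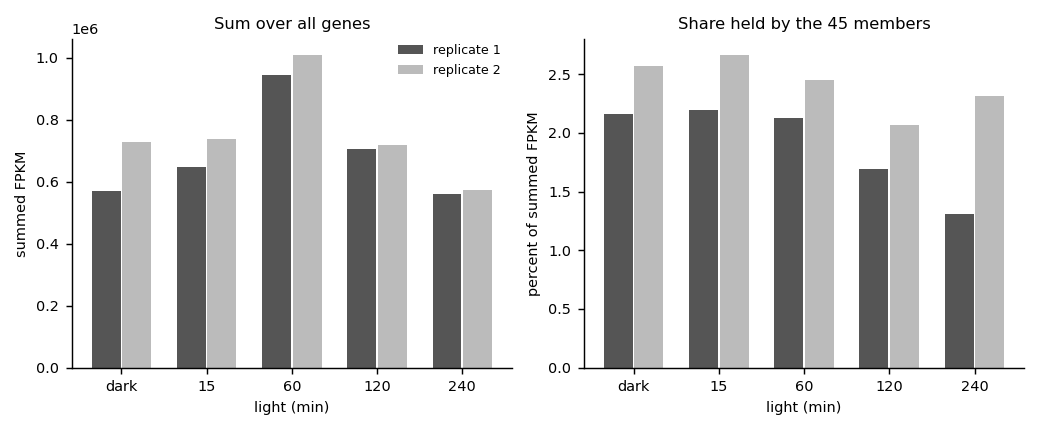
FPKM summed over all 9728 genes (left) and the percent of it held by the 45 genes (right), by time in light in min, with a bar for each replicate. The sum is highest at 60 min, where the share was 2.13% and 2.45%, close to the dark at 2.16% and 2.57%.

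Further genes of oxidative phosphorylation that the name rule did not take were also mostly below the dark at 120 min. Of 17 such genes (succinate dehydrogenase, cytochromes *c* and *c*1, the Rieske protein, other subunits of complexes I and IV and of the ATP synthase, the ADP/ATP carrier, and alternative respiratory enzymes), 3 were lower and 0 higher than in the dark at 120 min without the block (7.71% and 5.92% of the expressed genes), and 13 lower and 0 higher with it (32.5% and 26.5%). Under all 4 scalings 10 of them were lower (25.2% of the expressed genes). The median log2 change of the 17 was -0.62 at 120 min and 0.18 at 60 min, beside the -0.07 and -0.09 of all expressed genes. This list was made with earlier results of these data known.

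The Rieske iron-sulfur protein of complex III, *fes-1* (NCU06606), had 270.0 and 287 FPKM in the dark, 267 and 275 at 15 min, 292 and 332 at 60 min, 143 and 155 at 120 min, and 84.8 and 204 at 240 min. Its log2 change at 120 min was -0.90 ± 0.16 (SE, adjusted p = 0.019, and with the block SE 0.08 and adjusted p = 1.6e-04), and the 120 min and dark samples did not overlap. Cytochrome *c*1 (*cyt-1*, NCU09816) had 299 and 351 FPKM at 120 min, against 534 and 632 in the dark, with a change of -0.84 ± 0.20 (SE, adjusted p = 0.048, and with the block SE 0.09 and adjusted p = 2.7e-04). The ADP/ATP carrier (*aac*, NCU09477), which exchanges the 2 nucleotides across the inner membrane, had 2174 and 2193 FPKM at 120 min, against 3763 and 5435 in the dark, and changed by -1.05 ± 0.24 (SE, adjusted p = 0.044, and with the block SE 0.17 and adjusted p = 0.002). Without the block the calls of *cyt-1* and *aac* were lost when any 1 of the 8 samples was left out, and that of *fes-1* remained only without the first 15 min or either 60 min replicate. For cytochrome *c* itself (*cyc-1*, NCU01808) the levels were 324 and 728 at 120 min and 582 and 1408 in the dark, a change of -0.90 ± 0.61 (SE, adjusted p = 0.42, and with the block SE 0.18 and adjusted p = 0.0058). The alpha subunit of the ATP synthase (*atp-1*, NCU02514) had 530.1 and 337 FPKM at 120 min, against 785 and 602 in the dark, and changed by -0.70 ± 0.36 (SE, adjusted p = 0.29, and with the block SE 0.11 and adjusted p = 0.0017).

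Alternative oxidase (*aod-1*, NCU07953), which passes electrons from ubiquinol to oxygen without complexes III and IV, had 182 and 183 FPKM in the dark, 135 and 124 at 15 min, 156 and 158 at 60 min, 160.0 and 155 at 120 min, and 271 and 77.7 at 240 min. Its values at 15 min did not overlap those of the dark, and the log2 change was -0.49 ± 0.15 (SE, adjusted p = 0.087, and with the block SE 0.08 and adjusted p = 0.002). The complex IV gene *cya-4* (NCU05457) had 422 and 891 FPKM in the dark, 499.8 and 1064 at 15 min, 725 and 1444 at 60 min, 365 and 713 at 120 min, and 206 and 1156 at 240 min, with a change at 60 min that did not pass without the block (adjusted p = 0.5) and passed with it (adjusted p = 7.0e-04), and that was -0.06 after quantile normalization.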

How the data were processed

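Poly(A) RNA of 10 mycelium samples was enriched for capped mRNA, copied with random hexamers, and sequenced. The authors aligned the reads with TopHat 2.0.5 and computed FPKM with Cuffdiff, with its corrections for sequence bias and for multiply mapped reads. The deposited FPKM values, 1 per gene and sample, were computed for each replicate separately. By the study's own account every replicate 1 library had more reads than any replicate 2 library, and the 240 min replicate 2 the fewest. Whether strand was used is not given in the sources used here.

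Groups and replicates came from the sample records. Genes were tested with limma 3.58.1 (R 4.3.3, eBayes with a variance trend) on log2(FPKM + 1), which understates changes of low genes. The pseudocount was 1, and the filter kept 7688 genes whose mean FPKM exceeded 1 in at least 1 group. The dark, 15, 60, and 120 min samples (8) were fitted together, and the 240 min and dark samples (4) apart because of the gap between the 240 min replicates. P-values were adjusted by Benjamini and Hochberg over all genes, jointly over the 3 comparisons with the dark, jointly over 60 against 15 min and 120 against 60 min, and alone for 240 min. A call is an adjusted p of 0.05 or less, two-sided. With 2 samples a group no permutation test can reach 0.05, so none was run. P-values rest on the spread between replicates in the 8 or 4 samples of each main fit, moderated across genes. Without the block that spread includes any difference between replicates 1 and 2 that recurs across time points.

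Replicate numbers pair the samples, since each number marks 1 way of isolating RNA. Deviations from the group means correlated at 0.76 to 0.84 across genes between dark, 15, 60, and 120 min, and at 0.33 to 0.41 with 240 min. The fit with the replicate number as a block was therefore made as well, and its value is given where it changed a call or a count. The fit of the 8 samples was also run on simulated data with known changes at 60 min. Those data had no shift in summed FPKM, and the 240 min fit was not run on them. The run therefore says nothing on the scalings or on 240 min.

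Members and lists were chosen with earlier results of these data known. Genes named with values are the members with the largest changes among those called, the highest and lowest in the dark of each complex, 6 core subunits of complex I, the 3 with the largest gap between replicates at 240 min, and the assembly factors. Others (NCU00636, *qcr7*, *nuo21*, NCU07232, NCU09420, *cit-1*, and those listed as called) were named after their values were seen. Alternatives covered normalization, filter, pseudocount, threshold, block, and leaving out samples. RefSeq gave only names, chromosomes, and gene order. Sequences were not used here.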

Additional observations from a re-analysis of the deposited data

How the results depend on the processing

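Values below are given in the order in which the comparisons were described, as counts of the 45 genes at an adjusted p of 0.05 in limma. With the replicate number as a block, 3 were higher and 1 lower at 15 min against the dark (0 and 0 without it), 28 and 1 at 60 min (2 and 0), 0 and 17 at 120 min (0 and 1), 23 and 1 at 60 against 15 min (0 and 0), and 0 and 37 at 120 against 60 min (0 and 1), with 0 and 0 at 240 min as without it. Of the 17 other pathway genes, 7 were higher at 60 min with the block. In that fit 28.2% of the expressed genes and 40.6% of the 1999 listed genes were higher. At 120 min 13 of the 17 were lower with the block, beside 32.5% and 38.2%. Without it the counts were 0 and 3 (8.01% and 7.71% of the expressed genes). The remaining alternatives were run without the block unless stated. At 60 min against the dark, 0 genes were higher under quantile normalization, 1 without a filter, 4 with a mean FPKM above 10, 0 with all 10 samples in a single fit, and 0 with equal sums, where 1 was lower. At 120 min 3 were lower under quantile normalization, 0 under median scaling, 3 with a mean FPKM above 10, and 0 with all 10 samples. At 120 against 60 min 0 were lower under quantile normalization, median scaling, equal sums, and with all 10 samples. For the other pathway genes at 120 min 0 were lower under median scaling, 1 without a filter, and 0 with all 10 samples. At an adjusted p of 0.2, 2 were higher at 15 min, 12 at 60 min, and 3 at 60 against 15 min, 4 were lower at 120 min and 6 at 120 against 60 min, and 1 of the other pathway genes was higher at 60 min. No share over all expressed genes stands beside the counts of these alternatives or of this threshold. They show only how the number of calls moved, and not whether it exceeded that share.

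The other scalings of the blocked fit were chosen after the data had been seen. The shares of the expressed genes called in these fits stand with each comparison above. With the block and quantile normalization together, 2 were higher and 7 lower at 15 min, 16 lower at 60 min, 25 lower at 120 min, 2 higher and 9 lower at 60 against 15 min, 14 lower at 120 against 60 min, and 14 of the other pathway genes lower at 120 min. With the block and median scaling the counts were 7 and 1 at 15 min, 35 and 1 at 60 min, 4 and 8 at 120 min, 30 higher at 60 against 15 min, and 39 lower at 120 against 60 min. Of the other pathway genes 10 were then higher at 60 min (36.2% of the expressed genes) and 10 lower at 120 min (26.5%). With the block and equal sums they were 3 and 2 at 15 min, 4 and 13 at 60 min, 24 lower at 120 min, 3 and 10 at 60 against 15 min, 1 and 16 at 120 against 60 min, and 14 of the other pathway genes lower at 120 min.

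The median log2 change was -0.11 for 15 min of light, -0.20 for 60 min, -0.40 for 120 min, -0.50 for 240 min, -0.038 at 60 against 15 min, and -0.19 at 120 against 60 min under quantile normalization. Median scaling gave 0.63 for 60 min of light, -0.037 for 120 min, -0.52 for 240 min, and -0.66 at 120 against 60 min. Equal sums gave 0.017 for 15 min of light, -0.19 for 60 min, -0.31 for 120 min, -0.49 for 240 min, -0.15 at 60 against 15 min, and -0.12 at 120 against 60 min. The cause of these shifts was not tested.

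Leaving out each sample in turn gave 0 to 1 genes higher at 60 min, 0 to 0 lower at 120 min and at 120 against 60 min, 0 to 7 lower at 240 min, and 0 to 1 of the other pathway genes lower at 120 min. Of the 7 single calls, those of NCU00418, NCU00644, *atp-5*, *cyt-1*, and *aac* were lost whichever of the 8 samples was left out, that of NCU05220 remained only without the second dark replicate, and that of *fes-1* only without the first 15 min or either 60 min replicate. By replicate, the median change lay between 0.050 and 0.13 at 15 min, 0.30 and 0.59 at 60 min, -0.27 and -0.10 at 120 min, -0.75 and -0.64 at 240 min, 0.21 and 0.47 at 60 against 15 min, and -0.65 and -0.55 at 120 against 60 min.

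Of 24 gene changes that are given with a value, 19 kept their direction under all alternatives run. At 60 min, *nuo30.4* was -0.065 under quantile normalization and -0.086 with equal sums, *atp-2* -0.65 and -0.56, *nuo11.6* -0.26 and -0.57, and *nuo21* -0.44 and -0.47, the same with the block, and *cya-4* was -0.056 under quantile normalization. With single samples left out *atp-2* ranged from -0.0026 to 0.084, *nuo11.6* from -0.20 to 0.23, and *nuo21* from -0.10 to 0.35. The shares of summed FPKM moved by less than the replicate SD.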

Other observations

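Genes of other mitochondrial functions also changed at 120 min. All 11 genes of the tricarboxylic acid cycle (enzymes named *tca* or *cit-1*, without succinate dehydrogenase) had less than their own dark sample in each replicate at 120 min (47.2% of the expressed genes did), with a median log2 change of -1.02. In limma 5 of them were lower without the block (7.71% of the expressed genes) and 11 with it (32.5%). Citrate synthase (*cit-1*, NCU01692) had 147 and 139 FPKM at 120 min, against 406 and 353 in the dark. Of 57 mitochondrial ribosomal protein genes, 53 were likewise under their own dark in each replicate at 120 min, 26 were lower and 0 higher without the block (7.71% and 5.92% of the expressed genes), and 51 lower and 1 higher with it (32.5% and 26.5%). At 60 min the 11 cycle genes had a median of -0.25, beside the 0.41 of the 45 respiratory genes.

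As deposited, 58 of the 74 cytoplasmic ribosomal protein genes were above the dark in both replicates at 60 min. So were 38.2% of the expressed genes and 49.7% of the 1999 listed genes. The median log2 changes were 0.72 and 0.24 in replicates 1 and 2, beside 0.59 and 0.30 for the 45 respiratory genes. After quantile normalization the respiratory genes were at -0.06 and -0.20. In the blocked fit 3 of the 74 were higher at 60 min under every scaling, beside 10.9% of the expressed genes. At 120 min, as deposited, the ribosomal genes stood at -0.13 and -0.60, and the respiratory genes at -0.10 and -0.27.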
